A study of Mus musculus with 12 samples.

Results

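The 9 genes described here were Cd79a, Cd79b, Ms4a1, Pax5, Cr2, Blk, Cd22, Fcrla and Ebf1, which make or mark the B cell receptor (BCR) and the identity of B cells. They were taken by gene name from the 55414 genes of 1 expression table, the whole of which was tested. The lungs came from 6 mice of the genotype IL-10 B-WT, called control below, and 6 of the genotype IL-10 B-KO, called knockout below, all on a C57BL/6J background and all instilled with LPS, the lipopolysaccharide of E. coli O111:B4, with lungs excised on day 4. IL-10 B-KO mice came from crossing mice with a floxed Il10 gene to mb1-Cre mice, so that Cre removes Il10 in B lineage cells, whereas the alleles carried by the IL-10 B-WT controls, the number of Cre copies and the age of the mice are not given in the sources used here. Each library is 1 lung sample, and the labels do not state the animal behind it, so that p-values measure the spread between these samples.

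The BCR is a membrane immunoglobulin that signals through a pair of chains, Igα (Cd79a) and Igβ (Cd79b), whose tails are phosphorylated by SRC family kinases such as Blk. Cr2 (CD21), a co-receptor, lowers the threshold for that signal, and Cd22 is a lectin receptor that dampens it. Ms4a1 encodes CD20, Fcrla an Fc receptor-like protein kept inside the cell, and Ebf1 and Pax5 are the transcription factors that set up and hold the B lineage. Cd79a is also known as mb-1. Mb1-Cre is a Cre coding sequence placed in the Cd79a locus, so that the gene under study is the one that carries the driver allele in the IL-10 B-KO group. The allele and the loss of Il10 come together in every IL-10 B-KO lung, and their parts in any difference cannot be told apart here.

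Since the Cre allele sits in Cd79a and since EBF1 is known to bind the mb-1 promoter, promoter sequence is shown for the members that held one of 3 short motifs. The RefSeq table for GRCm38.p6 gave 7 promoters for 6 of the 9 genes, each 300 bases long (250 before and 50 after the transcript start), and none was found in it for Cd79b, Ms4a1 and Blk. The motifs searched on both strands were the EBF palindrome core CCCNNGGG, the EBF half-site ATTCCC, and the octamer ATGCAAAT. The sequences below read 5′ to 3′ on the strand of the gene, with the motif in capitals.
Cd79a, chr7:24897247-24897546, plus strand: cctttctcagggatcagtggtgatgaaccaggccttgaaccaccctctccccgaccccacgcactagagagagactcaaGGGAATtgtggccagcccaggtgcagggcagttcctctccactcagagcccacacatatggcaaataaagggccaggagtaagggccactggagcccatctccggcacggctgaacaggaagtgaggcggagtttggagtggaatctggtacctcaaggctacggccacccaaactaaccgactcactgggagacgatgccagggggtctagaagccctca
Cd22, chr7:30878979-30879278, minus strand: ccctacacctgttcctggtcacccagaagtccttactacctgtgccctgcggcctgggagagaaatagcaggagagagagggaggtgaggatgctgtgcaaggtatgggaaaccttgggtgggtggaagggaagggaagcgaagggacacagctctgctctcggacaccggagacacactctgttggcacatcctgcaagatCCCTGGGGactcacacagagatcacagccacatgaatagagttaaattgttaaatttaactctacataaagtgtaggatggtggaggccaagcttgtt
Ebf1, second start, chr11:44619978-44620277, plus strand: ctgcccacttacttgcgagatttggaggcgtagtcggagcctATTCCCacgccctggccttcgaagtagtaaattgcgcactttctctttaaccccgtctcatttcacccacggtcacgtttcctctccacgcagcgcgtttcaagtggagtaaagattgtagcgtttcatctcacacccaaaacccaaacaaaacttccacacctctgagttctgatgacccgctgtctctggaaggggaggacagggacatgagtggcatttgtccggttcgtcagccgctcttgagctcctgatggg
The half-site was found in the Cd79a promoter and at the second Ebf1 start, the palindrome core in the Cd22 promoter, and the octamer in 0 of the 7. Among all 32851 promoters in the table, 13.7% held the palindrome core, 13.1% the half-site and 1.74% the octamer, so that single matches of the first pair of motifs are common. The Pax5, Cr2 and Fcrla promoters held none of these letters.

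Levels are given in TPM, the read signal of a gene divided by its length and brought to the same total in each library, so that levels can be compared between genes. How many reads stand behind a value cannot be read from the table. The labelled tissue was met in all 12 libraries: Sftpc, the surfactant protein of alveolar type II cells, was at 2548 to 16424 TPM, and Ager, of alveolar type I cells, at 402 to 1847 TPM. Il10, the targeted gene, was near the bottom of the scale in both groups, at 0.42, 0.88, 0.62, 0.05, 0 and 0.16 TPM in control replicates 1 to 6 and at 0.49, 0, 0.30, 0.15, 0.58 and 0.17 TPM in knockout replicates 1 to 6. It was below the filter for testing, and in whole lung its level does not check the deletion in B cells. In control lungs the order of the 9 genes by median was Cd79b (26.2 TPM), Cd79a (23.1), Pax5 (13.5), Cd22 (10.7), Ebf1 (6.93), Blk (6.26), Fcrla (6.14), Ms4a1 (4.14) and Cr2 (1.98). Only 2 of the 8 neighbouring pairs kept their order in all 6 of these lungs, namely Cd79a above Pax5 and Ms4a1 above Cr2, and the order of each other pair changed from lung to lung.

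Differences between the groups are log2 fold changes of TPM + 1 (knockout minus control), a scale that compresses differences at low TPM. They were tested with limma over the 15148 genes with at least 1 TPM in at least 6 libraries, and a gene was called where the adjusted p was 0.05 or less and the absolute log2 fold change 1 or more. All 9 genes passed the filter, but Cd79a, Ms4a1 and Pax5 were at 1 TPM or more in just 2 of the 6 knockout lungs and Cr2 in 1, so that these passed through the control group. All 9 were lower on average in knockout lungs, with a median of -1.70 against 0.10 over all genes tested, and -1.35 over the 8 (all but Cr2) still tested without control replicates 1 and 2. Over all genes tested, 36.8% were lower on average, the share to set beside the counts of higher and lower genes in each list below. Of the 9, 1 was called, Cd79a, where 71 genes or 0.469% of those tested were called lower and 0.495% were called in either direction. Immunoglobulin genes made up 38 of the 75 genes called. At an unadjusted p ≤ 0.05, 8 of the 9 were lower (all but Blk), against 5.71% of all genes tested. Without control replicate 2 this fell to 5 of the 8 still tested, as Cd22 and Ebf1 no longer passed. Without control replicates 1 and 2 together it was 6 of 8, and Cr2 was tested in neither fit. The share of all genes that were higher at that p was not computed. In bulk lung RNA, fewer B cells and less RNA of these genes per cell cannot be told apart.

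**Figure D1:**
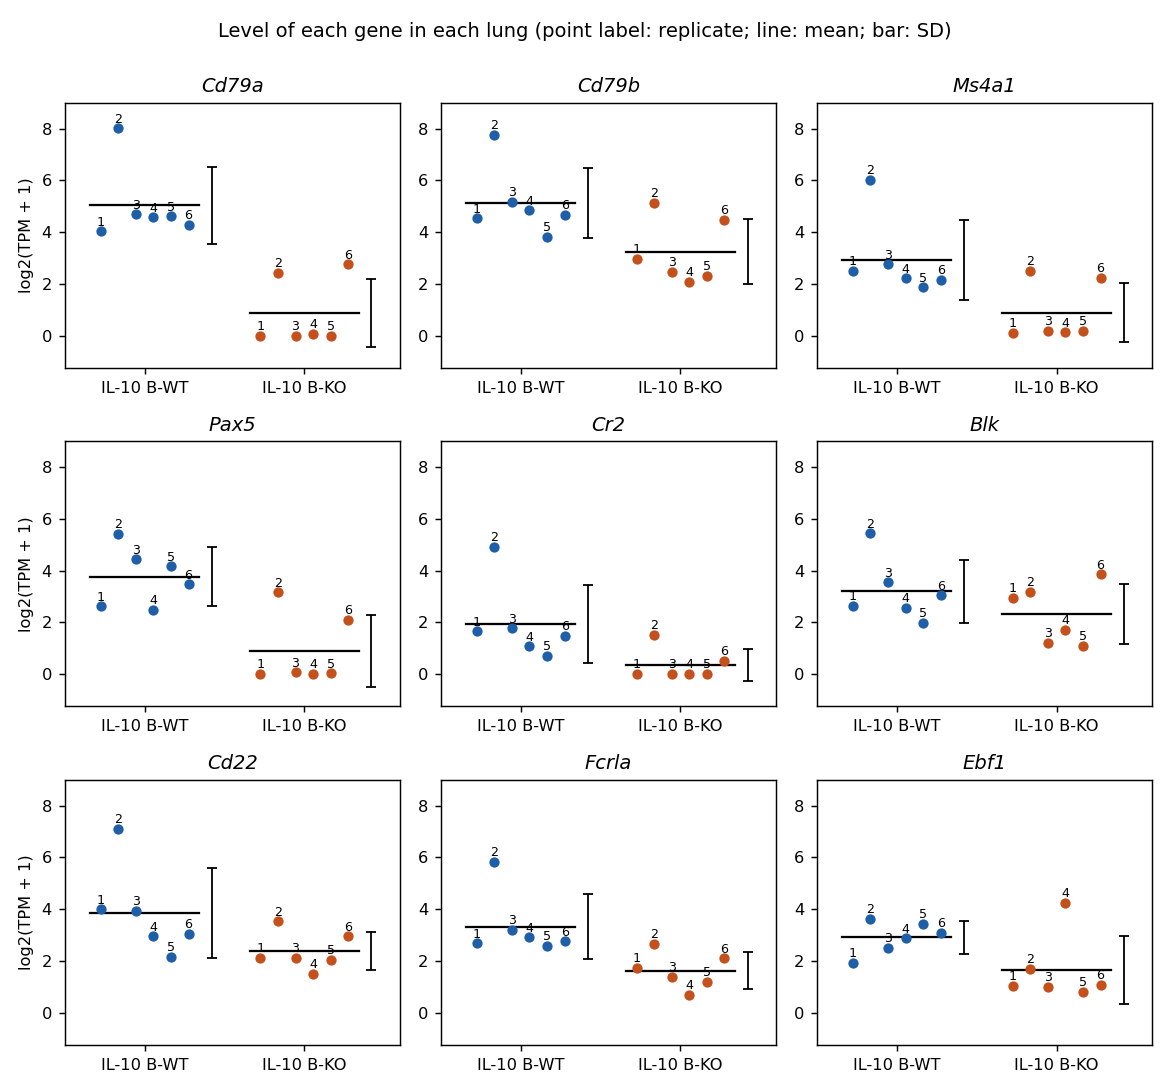
Level of the 9 genes in each lung as log2(TPM + 1), with 1 panel per gene and a point per lung labelled by its replicate number (blue, control (IL-10 B-WT); orange, knockout (IL-10 B-KO); horizontal line, mean; vertical bar, SD; n = 6 each). Knockout replicates 2 and 6 lie above the other 4 knockout lungs for Cd79a, Cd79b, Ms4a1, Pax5, Cr2, Blk, Cd22 and Fcrla, control replicate 2 is the highest lung for every gene but Ebf1, and Ebf1 is highest in knockout replicate 4.

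Libraries that stood apart touched every one of these results. Control replicate 2 held 4.2 to 19.0 times the median of the other 5 control lungs for 8 of the genes, with 1.82 times for Ebf1. The same lung was the highest for Ccl19 (141 TPM, against 9.47 TPM or less in every other lung) and for Glycam1 (140 TPM, against 0.97 TPM or less), a T-zone chemokine and a product of high endothelial venules of lymphoid tissue; Glycam1 was picked after its values were seen. Control replicate 1 had the highest summed level of 12 myeloid genes in its group, 14429 TPM, where the other 5 control lungs lay between 907 and 6529 TPM and the knockout lungs between 4424 and 15137 TPM. Values without these libraries are given where leaving them out changed a call or a direction or moved a value of the 9 genes or of a list by more than 1.5 times.

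Among the signalling chains, Cd79a (chromosome 7, 24897381 to 24902197, plus strand, GRCm38) showed the largest difference. It was at 15.3, 259, 24.8, 22.9, 23.4 and 18.4 TPM in control replicates 1 to 6, and was listed at 0 in knockout replicates 1, 3 and 5, at 0.05 TPM in replicate 4, at 4.35 TPM in replicate 2 and at 5.73 TPM in replicate 6. Every knockout lung was below every control lung, as for 140 or 0.924% of the genes tested, and no other of the 9 genes separated the groups. With a log2 fold change of -4.16 ± 0.71 (SE, limma adjusted p = 0.0222) it was called, and the two-sided exact permutation test on log2(TPM + 1) gave 0.00216, the smallest p that 6 lungs against 6 allow. Without control replicate 2 the log2 fold change was -3.56 (limma adjusted p = 0.0101). The call was lost on leaving out control replicate 4 or 5 or knockout replicate 1, 3 or 5, with log2 fold changes of -4.25 to -3.99 and limma adjusted p of 0.050013 to 0.067, and with no filter on low values (limma adjusted p = 0.0999).

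Cd79b, the partner chain (chromosome 11, 106311341 to 106314762, minus strand), was at 22.1, 214, 35.2, 27.8, 13.1 and 24.6 TPM in control replicates 1 to 6 and at 6.82, 33.98, 4.5, 3.23, 3.98 and 21.3 TPM in knockout replicates 1 to 6. The groups overlapped, because knockout replicates 2 and 6 lay inside the control range while the other 4 lay below it. The log2 fold change was -1.90 ± 0.66 (SE, limma adjusted p = 0.304). Unlike Cd79a, Cd79b was above 3 TPM in every knockout lung.

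The chains are made in B cells together, so that their ratio was compared lung by lung. The ratio of Cd79a to Cd79b TPM was 0.693 to 1.79 in control lungs (median 0.785). In knockout replicates 2 and 6, where Cd79b was within the control range, it was 0.128 and 0.269, and in the other 4 it was 0.0155 or listed at 0. All 6 knockout lungs were thus below every control lung. The difference between Cd79a and Cd79b on the log2(TPM + 1) scale was -0.10 ± 0.52 in control lungs and -2.37 ± 0.45 in knockout lungs (SD, n = 6 each), lower by 2.26 (two-sided exact permutation p = 0.00216, the smallest possible, for 1 comparison chosen with the values known). In the knockout lungs other than replicates 2 and 6, Cd79a was listed at 0 or 0.05 TPM. The log2 difference there was set by Cd79b and the added 1, so that it and its part of the SD do not measure a ratio. Against Ms4a1, the ratio of Cd79a was 0.924 and 1.55 in knockout replicates 2 and 6 and 3.30 to 8.87 in control lungs. The ratio of Cd79b to Ms4a1 in the same 2 lungs, 7.21 and 5.77, was above the median of 5.56 in control lungs and inside their range of 3.38 to 7.63. In the other 4 knockout lungs the ratio of Cd79b to Ms4a1 was 30.6 to 85.3, far above the control range. Ms4a1 was at 0.13 TPM or less there, where a ratio to it resolves little.

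**Figure D2:**
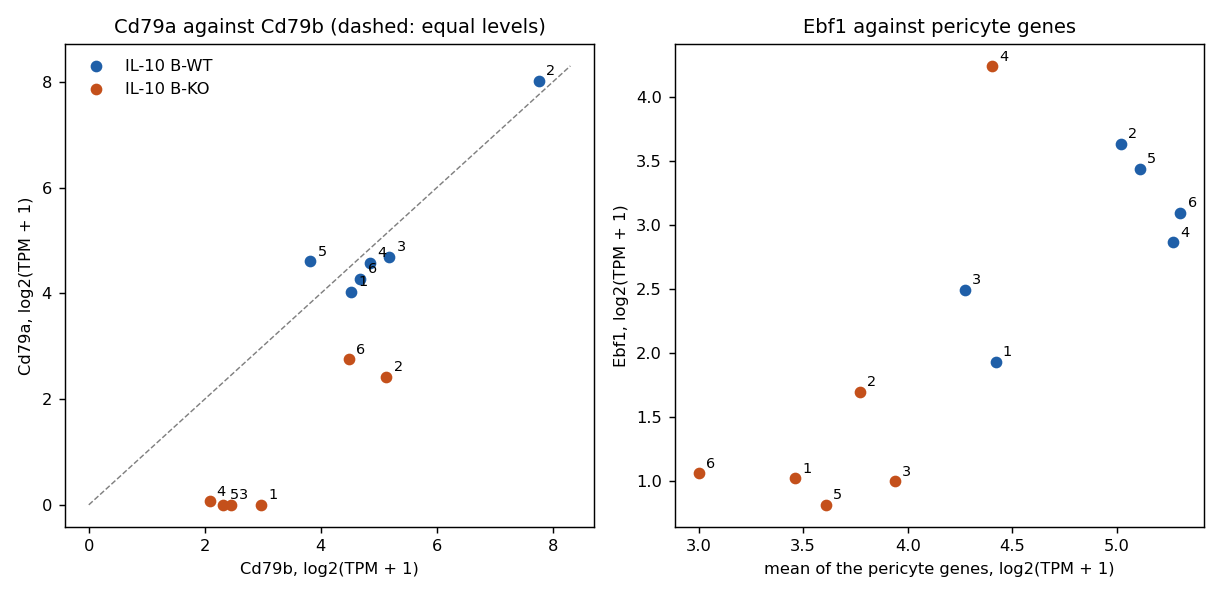
Left, Cd79a against Cd79b, and right, Ebf1 against the mean of 13 pericyte genes, as log2(TPM + 1) with 1 point per lung labelled by replicate (blue, control (IL-10 B-WT); orange, knockout (IL-10 B-KO); dashed line, equal levels). Control lungs lie near the dashed line and all 6 knockout lungs below it, and knockout replicate 4 is set apart by its Ebf1 level.

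The genes on either side of Cd79a did not share its pattern. Rps19, a ribosomal protein gene that ends 7686 bases before it, was at 235 to 601 TPM in control lungs and 509 to 716 TPM in knockout lungs (log2 fold change 0.35, 95% CI -0.12 to 0.81, limma adjusted p = 0.503). Arhgef1, a guanine nucleotide exchange factor gene that begins 1128 bases after it, was at 77.9 to 238 and 138 to 203 TPM (0.05, 95% CI -0.47 to 0.56, limma adjusted p = 0.941). For both, every knockout lung was above the lowest control lung.

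Of the lineage transcription factors, Pax5 (chromosome 4, 44524757 to 44710487, minus strand) came closest to Cd79a. It was at 5.14, 42.2, 20.7, 4.64, 17.0 and 10.1 TPM in control replicates 1 to 6, and at 0.01, 7.94, 0.05, 0, 0.02 and 3.29 TPM in knockout replicates 1 to 6. Of the knockout lungs, 5 were below every control lung and replicate 2 was inside their range. The log2 fold change was -2.87 ± 0.64 (SE, limma adjusted p = 0.0731, exact permutation p = 0.00866). It passed the threshold without control replicate 1 (-3.11, limma adjusted p = 0.0301) and without knockout replicate 2 (-3.33, limma adjusted p = 0.0215).

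Ebf1 (chromosome 11, 44617317 to 45008091, plus strand), which acts upstream of Pax5 in B cell development, went its own way. It was at 2.82, 11.4, 4.64, 6.30, 9.85 and 7.56 TPM in control replicates 1 to 6 and at 1.03, 2.25, 1.00, 17.9, 0.76 and 1.09 TPM in knockout replicates 1 to 6. The highest of all 12 lungs was knockout replicate 4, where Cd79a was at 0.05 TPM and Pax5 and Cr2 were listed at 0, and the other 5 knockout lungs were below every control lung. The log2 fold change was -1.27 ± 0.52 (SE, limma adjusted p = 0.357), and without knockout replicate 4 it was -1.79 (limma adjusted p = 0.0271). Over the 12 lungs, Pearson's r of Ebf1 with the mean of the other 8 genes was 0.42, where each of the others reached 0.82 to 0.98 with its own remaining 8. These values share the difference between the groups and the height of control replicate 2. Without that lung r was 0.23 for Ebf1 and 0.64 to 0.96 for the others. Within the 6 control lungs r was 0.46 for Ebf1 and 0.73 to 0.99 for the others. Within the 6 knockout lungs, replicate 4 included, it was -0.21 for Ebf1 and 0.77 to 0.97 for the others.

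Ebf1 is also known from mesenchymal cells and pericytes, the contractile cells around capillaries, so that 13 pericyte genes were set beside it. All 13 were lower on average in knockout lungs, with a median of -1.38, and 5 fell past the threshold: Gucy1a1 (-2.07, limma adjusted p = 0.0222) and Gucy1b1 (-1.65), which form soluble guanylate cyclase, Notch3 (-1.78), the growth factor receptor gene Pdgfrb (-1.44) and the channel gene Trpc6 (-1.29). Without control replicate 1, 9 of the 13 were called, and without control replicate 2, 2 were. None of the 13 was called without control replicate 4, without knockout replicate 1, 3 or 5, or with no filter, quantile normalization, median centring or a replicate block (the replicate number as a further term). Without control replicates 1 and 2 together, 11 of the 13 were lower. The smallest differences were those of Kcnj8 (-0.17) and Rgs5 (-0.25). The summed level of the 13 genes was 490 to 1172 TPM in control lungs and 137 to 551 TPM in knockout lungs, with the 551 TPM in replicate 4, the lung with the highest Ebf1. Pearson's r of Ebf1 with the mean of the 13 was 0.79 over 12 lungs, and 0.90 over 11 without that lung, against 0.77 with the other 8 B cell genes over the same 11. These values, too, share the difference between the groups, and r with the pericyte genes within a group was not computed. The part of pericyte RNA in the Ebf1 result was not tested.

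Of the relatives of Ebf1, Ebf2 was at 0 to 0.25 TPM and Ebf3 at 0 to 0.24 TPM over the 12 lungs, below the filter. Ebf4 was at 1.07 to 2.38 TPM in control lungs and 0.97 to 1.45 TPM in knockout lungs (-0.41, limma adjusted p = 0.330).

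**Figure D3:**
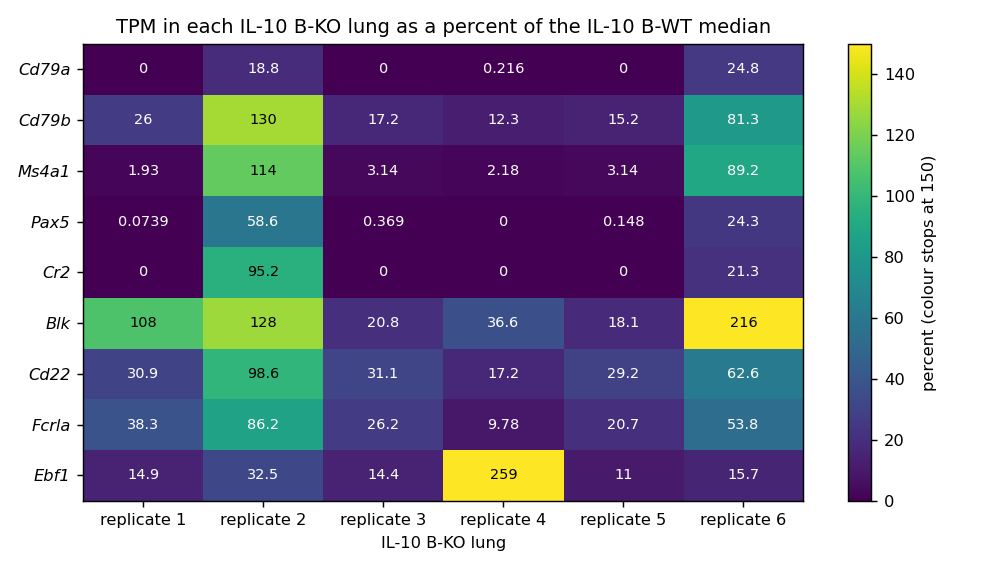
TPM of each of the 9 genes (rows) in each knockout lung (columns), printed as a percent of the median of the 6 control lungs, with the colour scale ending at 150%. Replicates 2 and 6 hold 130% and 81.3% of the Cd79b median and 114% and 89.2% of the Ms4a1 median, but 18.8% and 24.8% of the Cd79a median.

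Among the surface receptors, Ms4a1 (chromosome 19, 11249675 to 11266241, minus strand) was at 4.63, 63.5, 5.72, 3.64, 2.64 and 3.47 TPM in control replicates 1 to 6. In knockout replicates 1 to 6 it was at 0.08, 4.71, 0.13, 0.09, 0.13 and 3.69 TPM. Replicates 2 and 6 of the knockout group were thus inside the control range and the other 4 near 0. The log2 fold change was -2.03 ± 0.69 (SE, limma adjusted p = 0.298).

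Cr2 (chromosome 1, 195136811 to 195176716, minus strand), the complement receptor that follicular dendritic cells carry as well, was the least abundant of the 9. It was at 2.15, 29.2, 2.42, 1.11, 0.62 and 1.80 TPM in control replicates 1 to 6, and was listed at 0 in 4 knockout lungs, with 1.88 TPM in replicate 2 and 0.42 TPM in replicate 6. All knockout lungs but replicate 2 were below every control lung. This was a log2 fold change of -1.60 ± 0.59 (SE, limma adjusted p = 0.328). Cr2 reached 1 TPM in 6 libraries, the fewest that the filter allows. It was therefore tested in only 6 of the 12 fits with 1 library left out, and it was not tested with the filter on the mean.

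Cd22 (chromosome 7, 30865402 to 30880342, minus strand) was at 14.9, 137, 14.2, 6.73, 3.43 and 7.19 TPM in control replicates 1 to 6 and at 3.31, 10.6, 3.33, 1.84, 3.13 and 6.70 TPM in knockout replicates 1 to 6. The knockout lungs other than replicates 2 and 6 lay below the control range, but replicates 1, 3 and 5 (3.13 to 3.33 TPM) were close to its lower end. The log2 fold change of -1.48 ± 0.67 (SE, limma adjusted p = 0.381) leaned on control replicate 2, without which it was -0.84, and it was -0.64 without control replicates 1 and 2 together.

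Fcrla (chromosome 1, 170917576 to 170927583, minus strand) was at 5.42, 56.1, 8.14, 6.49, 5.04 and 5.78 TPM in control replicates 1 to 6 and at 2.35, 5.29, 1.61, 0.60, 1.27 and 3.30 TPM in knockout replicates 1 to 6. All knockout lungs but replicate 2 lay below the control range, and no lung was at 0. Its log2 fold change was -1.70 ± 0.52 (SE, limma adjusted p = 0.233, exact permutation p = 0.00433). A pseudogene annotated across Fcrla on the same strand reached 1.20 TPM, and the other 7 genes annotated over Ms4a1, Pax5, Cd22 or Ebf1 reached 0.84 TPM at most.

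The kinase gene Blk (chromosome 14, 63372836 to 63417037, minus strand) differed least. It was at 5.27, 42.4, 10.7, 4.88, 2.96 and 7.25 TPM in control replicates 1 to 6 and at 6.78, 8.02, 1.30, 2.29, 1.13 and 13.5 TPM in knockout replicates 1 to 6. Replicates 1, 2 and 6 of the knockout group were inside the control range, and replicate 1 held Blk at 108% of the control median with Cd79a at 0 and Pax5 at 0.01 TPM. The fitted difference was -0.87 (95% CI -2.16 to 0.42, limma adjusted p = 0.534), and it was -0.42 without control replicate 2 and -0.45 without control replicates 1 and 2. Blk is also expressed by some T cells. The summed level of 15 T cell genes was highest in control replicate 2 (510 TPM) and knockout replicate 1 (486 TPM), where the other 5 knockout lungs were at 116 to 180 TPM, and the part of T cells in the Blk values was not tested.

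**Figure D4:**
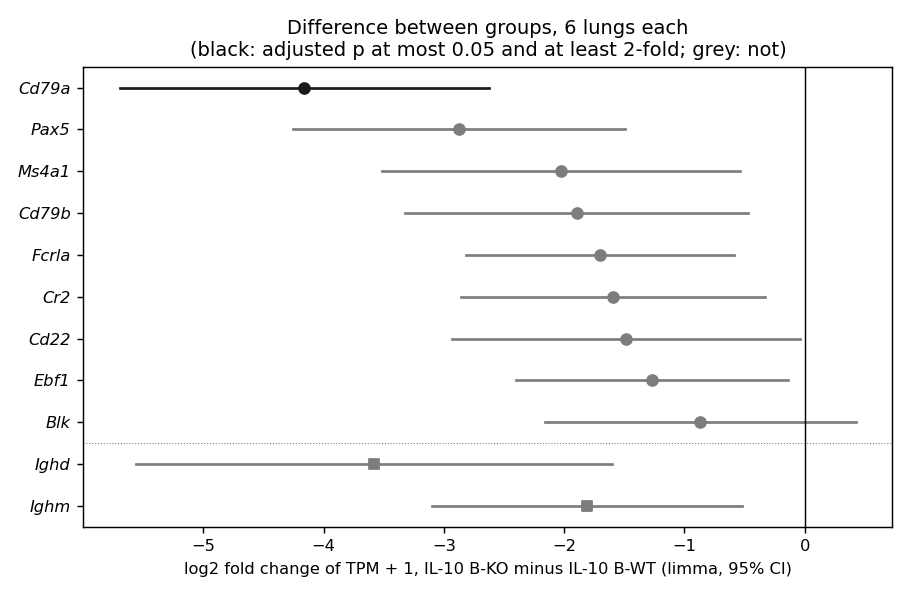
Log2 fold change of TPM + 1 between knockout and control lungs with its 95% confidence interval from limma, for the 9 genes (circles) and for Ighd and Ighm (squares), 6 lungs each, in black where called. All 11 estimates are below 0, Cd79a is the only one called, and the interval of Blk is the only one that includes 0.

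Set side by side, the knockout lungs did not form an even group for these genes. Replicate 2 reached the lowest control value for 7 of the 9 genes (all but Cd79a and Ebf1) and replicate 6 for 4, Cd79b, Ms4a1, Blk and Cd22. Replicates 1 and 4 did so for 1 gene each, Blk and Ebf1, and replicates 3 and 5 for 0. The same order was seen in 22 other B cell identity genes, of which replicate 2 reached the lowest control value for 21, replicate 6 for 17 and the remaining 4 lungs for 8 to 11. Replicate 2 had the lowest summed level of myeloid genes in its group (4424 TPM) and replicate 6 the next to highest (15048 TPM).

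Of the 22 other B cell identity genes, 18 were lower in knockout lungs on average and 4 higher, and 0 were called, while 14 were lower at an unadjusted p ≤ 0.05. Their median was -1.20, with -0.78 without control replicate 2 and -0.72 without control replicates 1 and 2. Without control replicate 1, 2 were called (Fcmr and Pou2af1), and without knockout replicate 2 or with the replicate block, 3 were. The lowest was Fcmr (-3.07, limma adjusted p = 0.107), the Fc receptor for IgM, at 10.4 to 129 TPM in control lungs and 0 to 14.4 TPM in knockout lungs. The highest were Cd180 (0.69) and Cd72 (0.62), neither of which passed the test.

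Of the membrane immunoglobulin chains, Ighd, the heavy chain of IgD on mature naive B cells, was at 21.6 to 273 TPM in control lungs and at 1.05, 37.5, 0.12, 0.37, 0.32 and 18.9 TPM in knockout replicates 1 to 6 (-3.58, limma adjusted p = 0.130), highest in replicates 2 and 6. It was called without knockout replicate 2 and with the replicate block. Ighm was at 39.1 to 622 TPM in control lungs and at 54.6, 69.6, 12.3, 28.1, 15.1 and 50.9 TPM in knockout replicates 1 to 6 (-1.81, limma adjusted p = 0.285), so that replicate 1 lay inside the control range with replicates 2 and 6. Among genes of antibody-secreting cells, Jchain, which joins polymeric IgA and IgM, fell by 7.6 on the log2 scale (limma adjusted p = 0.000662), from 32.0 to 2170 TPM in control lungs to 0.03 to 2.96 TPM in knockout lungs, with 2.26 and 2.96 TPM in replicates 2 and 6. Mzb1, a chaperone gene of antibody secretion, fell by 3.57 (limma adjusted p = 0.0195), and was at 3.68 and 2.79 TPM in these lungs against 6.42 TPM or more in every control lung. These were the 2 called of 8 tested plasma cell genes, whose median was -0.75, and -0.50 without control replicate 2. Mzb1 was not called without control replicate 5 or knockout replicate 1, 3 or 5, or with no filter, and Derl3 was called as well without control replicate 1 or 2. Sdc1 (0.83) and Xbp1 (-0.04) were the highest of that list.

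Downstream of the receptor, the 20 genes for kinases, adaptors and effectors of BCR signalling had a median of 0.30 (0.17 without control replicate 5, and 0.61 with 1 gene called, Malt1, without control replicates 1 and 2). Of these 16 were higher and 4 lower on average, with 36.8% of all genes tested lower. Of the 20, 0 were called and 0 had an unadjusted p ≤ 0.05. Vav1 (1.14) and Pik3ap1 (1.01) were the highest, and Blnk (-0.54), the B cell linker, and Rasgrp3 (-0.41) the lowest. Many of these are used by myeloid cells as well. Myeloid markers lay on the other side: all 12 were higher on average in knockout lungs, with a median of 1.74, 0 called and 10 at an unadjusted p ≤ 0.05. Without control replicate 1, the lung high in these genes, 8 of the 12 were called (Cd68, Adgre1, Itgam, Fcgr3, Cd14, S100a8, S100a9 and Marco) with a median of 2.18, and 3 were called with array quality weights (Cd68, Itgam and Cd14). Itgam (2.35) and S100a8 (1.94) were the highest, and Mrc1 (0.26) and Lyz2 (1.19) the lowest. TPM share 1 total per library, and the part of myeloid RNA in the lower TPM of the 9 genes was not tested.

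Receptors that adjust the BCR signal split. Of 15 tested, 8 were higher and 7 lower, with a median of 0.49 and 0 called, and 3 were higher and 5 lower at an unadjusted p ≤ 0.05. The inhibitory receptors Lair1 (1.77) and Fcgr2b (1.69), which myeloid cells also carry, were the highest, and Cr2 was among the lowest. The median was 0.32 without control replicate 4, 0.18 without control replicate 5 and 0.76 without control replicates 1 and 2, and without control replicate 1 Lair1 and Pirb were called. B lineage transcription factors had a median of -0.48 over 17 genes (-0.22 without control replicate 2 and -0.14 without control replicates 1 and 2), with 0 called and 1 higher and 8 lower at an unadjusted p ≤ 0.05. After Pax5, the lowest was Pou2af1 (-2.74, limma adjusted p = 0.122), the octamer coactivator of B cells, which was called without control replicate 1 or knockout replicate 2, and the highest were Spi1 (1.26) and Ikzf1 (0.59). Spi1 encodes PU.1, which myeloid cells use too.

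Within the gene families of Ms4a1, Blk and Fcrla, each of these genes had the lowest fold change of its family. Of 10 tested MS4A genes, 8 were higher on average, with a median of 1.38, 0 called, and 5 higher and 1 lower at an unadjusted p ≤ 0.05. Ms4a6d (2.59, limma adjusted p = 0.298) and Ms4a4a (2.15, limma adjusted p = 0.169), both known from macrophages, were the highest, and Ms4a1 and Ms4a4d (-0.37) the lowest. Without control replicate 1, 3 were called as higher (Ms4a4a, Ms4a6c and Ms4a6d), without knockout replicate 2 Ms4a4a was, and without control replicates 1 and 2 the median was 2.17 with 0 called. Among 8 SRC family kinases the median was 0.03 (-0.07 without control replicate 5 and 0.20 without control replicates 1 and 2), Blk was the lowest and Src (-0.12) the next, and Fgr (1.35) was the highest, with 0 called and Fgr alone at an unadjusted p ≤ 0.05. Of 3 tested FCRL genes, Fcrla and Fcrl1 (-1.39) were lower and Fcrlb (1.45) higher, with 0 called and 2 at an unadjusted p ≤ 0.05, and their median of -1.39 was -0.91 without control replicate 2.

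The other lymphoid and stromal lists had medians between -0.10 and 0.12, against 0.10 over all genes. The 13 tested T cell genes had a median of -0.10, with 0 called and 0 at an unadjusted p ≤ 0.05. Its direction turned with the lungs included: 0.18 without control replicate 2 and 0.31 without control replicates 1 and 2, but -0.39 without control replicate 5 and -0.40 without knockout replicate 1. Lck (0.32) and Cd3d (0.19) were the highest and Tcf7 (-0.59) and Cd4 (-0.50) the lowest. Plasmacytoid dendritic cell genes had a median of 0.12 over 6 tested, follicular dendritic cell and lymphoid stroma genes 0.10 over 8, germinal centre genes 0.11 over 5, early B cell genes 0.11 over 5 and thymocyte genes -0.07 over 2, with 0 called in each. These medians near 0 also moved with the lungs included, to between -0.32 and 0.33 with 1 library left out and between 0.04 and 0.49 without control replicates 1 and 2. Without control replicate 1, Bst1 and Enpp2 were called. The early B cell list had 1 gene higher (Bst1) and 1 lower (Vpreb3, -1.15) at an unadjusted p ≤ 0.05, and the plasmacytoid, germinal centre and thymocyte lists 0. In the follicular dendritic cell list, 1 gene was higher (Bst1, 1.66) and 1 lower (Enpp2, -1.10) at an unadjusted p ≤ 0.05. The early B cell genes Rag1 and Rag2 were at 0.04 TPM or less in all 12 lungs.

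**Figure D5:**
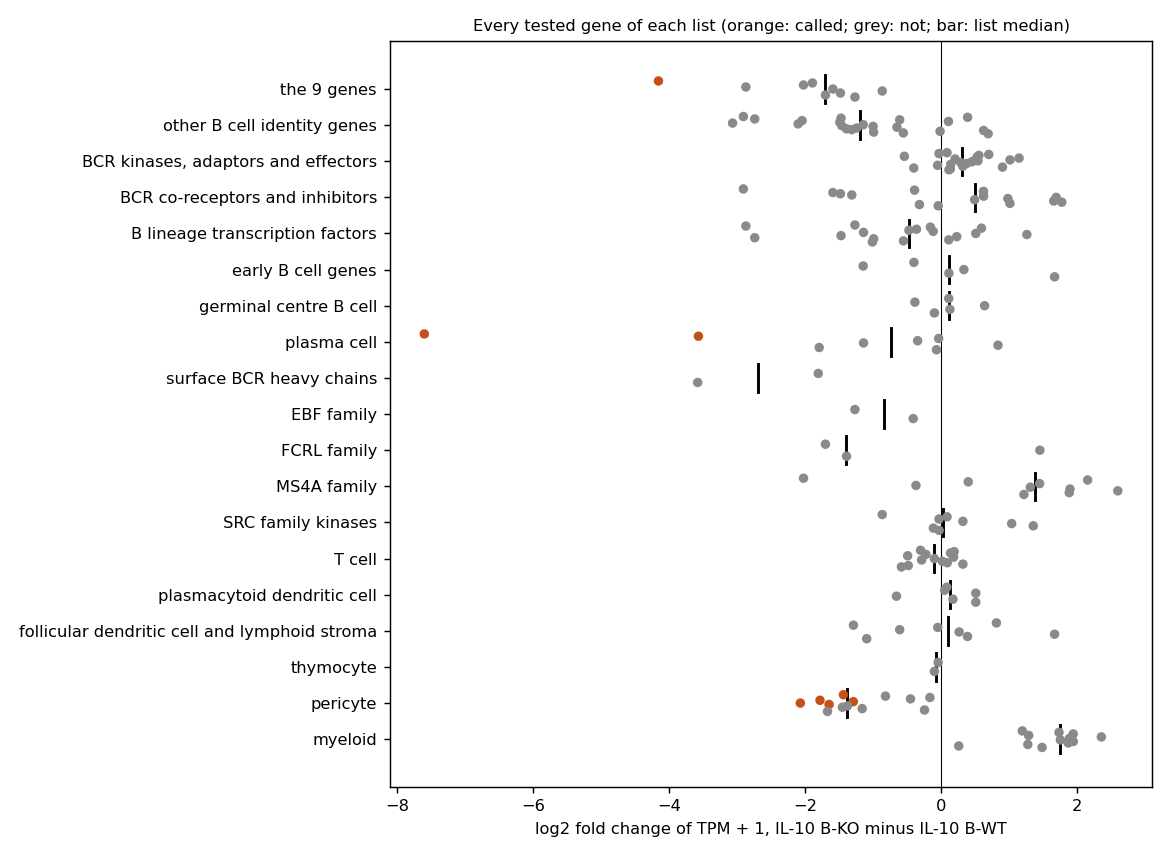
Log2 fold change of TPM + 1 (knockout minus control) for every tested gene of the 9 and of 18 lists, a point per gene (orange, called; grey, not called) with a bar at the median of each list. The medians of the 9 genes (-1.70), other B cell identity genes (-1.20) and pericyte genes (-1.38) lie left of 0, and those of myeloid (1.74) and MS4A genes (1.38) to the right.

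The 10 genes most like the mean of the 9 over the 12 lungs, outside the 9 and the immunoglobulin genes, included Pou2af1 (Pearson's r 0.99), Fcrl1 (0.97), Tnfrsf13c (0.97), Fcmr (0.96), Srpk3 (0.96), Bank1 (0.96), Ly6d (0.95), Siglecg (0.94) and Chst3 (0.94). These values rest on the shared difference between the groups and on control replicate 2. Without that lung r was 0.86 to 0.99, and within the 6 knockout lungs 0.73 to 0.99. Of the 10, 8 were on a list of B cell genes, and Srpk3 (0.18 to 2.71 TPM in knockout lungs, 1.46 to 20.5 TPM in control lungs), a serine/arginine protein kinase gene, and Chst3, a sulfotransferase gene, were not.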

How the data were processed

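RNA from 12 whole lungs was measured by RNA-seq, 6 from IL-10 B-WT and 6 from IL-10 B-KO mice, grouped by the genotype label. The authors deposited TPM, 1 column per library with no pooling, rounded to 2 decimals. The submitters' processing notes name fastp, HISAT, RSEM and GRCm38.p5, with no versions. The annotation release and read strand are not given in the sources used here. TPM hold no depth, so that neither a counting error nor a limit of detection is stated, and a gene listed at 0 may be a failed estimate. Column sums were 991646 to 994430 TPM, and every column was mapped to its sample. No 2 libraries had identical values.

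Log2(TPM + 1) was fitted with limma 3.58.1 (R 4.3.3, eBayes with a trend, Benjamini-Hochberg adjustment) with a single genotype term, on the 15148 genes that reached 1 TPM in at least 6 libraries. The fit was tested on simulated data. Exact permutation tests ran over 924 arrangements (Python 3.11.15, SciPy 1.17.1). Coordinates came from GENCODE M21 on GRCm38, matched by gene ID, and promoters and neighbouring genes from RefSeq on GRCm38.p6.

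The members and the 19 other gene lists were chosen with earlier results of these data known. Genes named were the 9 members, of each list the called genes and the 2 highest and 2 lowest, the EBF family and Il10, the 10 genes with the highest Pearson's r to the mean of the members, and the neighbours of Cd79a. Some genes that this rule names are not reported here, but stay in the counts and medians of their lists. Protein motifs were not analysed here. The fit was repeated without the filter, with a filter on the mean (5 TPM), with a pseudocount of 0.1, and after median centring or quantile normalization. It was also repeated with all genes rescaled to the total of the genes other than immunoglobulin genes, which stayed in the fit. Further repeats used weights for array quality, a replicate block, no minimum fold change, each library left out and, added after seeing the data, IL-10 B-WT replicates 1 and 2 left out together.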

Additional observations from a re-analysis of the deposited data

Results flagged for a closer look

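Among 22 sets of 6 lungs (the 9 genes, Ighm and Ighd in each group), 9 held a lung whose gap to its nearest neighbour passed Dixon's 95% critical value on the log2(TPM + 1) scale, where chance alone passes about 1 set in 20. In 7 of these it was control replicate 2, the highest lung for Cd79a (259 TPM), Cd79b (214 TPM), Ms4a1 (63.5 TPM), Cr2 (29.2 TPM), Cd22 (137 TPM), Fcrla (56.1 TPM) and Ighd (273 TPM). The sets are not independent, since 1 lung gives most of them. In the knockout group, Cr2 stood apart in replicate 2 (1.88 TPM). The other knockout lungs held Cr2 at 0 to 0.42 TPM, too near the floor for the critical value to say much. Ebf1 stood apart in knockout replicate 4 (17.9 TPM). The Ebf1 value of that lung came with 8 of 13 pericyte genes at or above the lowest control lung, against 1 to 4 in the other knockout lungs, and with Ms4a1 at 0.09 TPM.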

How the results depend on the processing

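The count of 75 genes called moved by more than 1.5 times to 6 with no filter, 39 with quantile normalization, 36 with median centring, 318 with array quality weights and 133 without control replicates 1 and 2 together, and lay between 15 and 576 with 1 library left out, the 15 without knockout replicate 5 and the 576 without control replicate 1. Of the 9 genes, 0 were called with no filter (7 at an unadjusted p ≤ 0.05, with 31629 genes tested), 3 with array quality weights (Cd79a, Pax5 and Fcrla) and 0 to 2 with 1 library left out. With the replicate block, 45 genes and 2 of the 9, Cd79a and Pax5, were called, but lungs with the same number did not deviate together (r of -0.29 to 0.05), so that the numbers pair nothing. Each of the 181 log2 fold changes of the 9 genes that the alternatives gave was below 0. The median over all genes shifted by -0.11 with median centring and with array quality weights, by -0.12 without control replicate 5 and by 0.13 without control replicates 1 and 2. Called pericyte genes ranged from 0 to 9 of 13. The causes were not tested. Depth is unknown, and Cr2 and the 0 values of Cd79a and Pax5 lie where TPM resolve little.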
